A study of Mus musculus with 12 samples.

Results

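The 10 genes described here encode proteins of activin and transforming growth factor-β (TGF-β) signalling: *Fst*, *Inhba*, *Tgfb1*, *Acvr1*, *Acvr1b*, *Acvr2a*, *Tgfbr1*, *Tgfbr2*, *Smad3* and *Smad7*. They were taken by symbol from a table of 55471 genes, and all 10 were among the 18228 genes with enough counts to be tested. *Fst* was the gene the set was built around, because its rise with knockdown of *Ppargc1b* was the largest in the same libraries, so its knockdown values are given as a description with no test. A total of 3 libraries were made from each of 4 groups of mouse bone marrow-derived dendritic cells (DCs). The groups were unstimulated shControl, unstimulated sh*Ppargc1b*, shControl after 6 h of interferon-β (IFN-β), and sh*Ppargc1b* after 6 h of IFN-β. All groups were GM-CSF cultures of marrow from adult female C57BL/6 mice (GM-CSF is granulocyte-macrophage colony-stimulating factor), and all carried the LMP retroviral vector with a short hairpin RNA (shRNA) and a human CD8 reporter, on which transduced cells were sorted. The shControl hairpin targets firefly luciferase, and the sh*Ppargc1b* hairpin targets *Ppargc1b*, which encodes the transcriptional co-activator PGC-1β. The labels name no hairpin beyond its target, and they do not say whether the 3 libraries of a group came from separate mice or cultures, so the p-values below measure the spread between these libraries.

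Activins and TGF-βs are secreted dimers that bind a type II receptor kinase, which activates a type I receptor. The type I receptors for activin (ALK4, from *Acvr1b*) and TGF-β (ALK5, from *Tgfbr1*) phosphorylate Smad2 and Smad3, which enter the nucleus with Smad4. Follistatin, from *Fst*, is a secreted protein that binds activin and keeps it from its receptors, and *Inhba* encodes the βA chain, whose homodimer is activin A. DCs both make and respond to these factors, and TGF-β is known in this lineage for restraint of activation and for the development of Langerhans cells.

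The sequence just before the start of the gene is shown for *Inhba* and *Tgfbr2*, because they were the member with the largest tested rise and the member with the clearest fall with knockdown. Both are 250 bases from RefSeq (mouse build GRCm38.p6), 5′ to 3′ on the strand of the gene, with CAGAC, a Smad-binding element, in capitals where it was found on either strand. The *Inhba* window lies at chr13:16011601-16011850 (plus strand) and the *Tgfbr2* window at chr9:116175364-116175613 (minus strand).
Inhba: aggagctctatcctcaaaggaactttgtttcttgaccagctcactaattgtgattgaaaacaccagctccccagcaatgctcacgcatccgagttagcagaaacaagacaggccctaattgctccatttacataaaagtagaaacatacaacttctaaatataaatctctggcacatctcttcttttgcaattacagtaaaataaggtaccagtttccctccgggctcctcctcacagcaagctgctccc
Tgfbr2: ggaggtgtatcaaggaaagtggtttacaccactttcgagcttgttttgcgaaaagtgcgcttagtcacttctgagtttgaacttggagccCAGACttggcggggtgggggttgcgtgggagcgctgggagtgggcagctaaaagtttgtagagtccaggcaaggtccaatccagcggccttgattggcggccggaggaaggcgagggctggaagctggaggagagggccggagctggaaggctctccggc
The *Tgfbr2* window held 1 CAGAC, 160 bases before the start, and the *Inhba* window held none. In the RefSeq table, 8 of the 10 genes were found, with 9 promoters in all, and *Fst* and *Smad7* were not among them. CAGAC lay in 3 of the 9 promoters (*Acvr2a*, *Tgfbr2* and 1 of 2 for *Tgfbr1*), against 42.2% of 32851 promoters of the same length. The letters TGANTCA (AP-1), GAAANNGAA (part of the interferon-stimulated response element) and GGGANTTCC (a form of the NF-κB site), each searched on both strands, were in 0 of the 9, against 6.75%, 7.13% and 1.43% of all promoters. These are matches of letters in a short window and not measured binding.

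Library totals were 49.9 to 77.7 M counts, and levels are given as CPM, library-scaled counts with the TMM factors of edgeR (a trimmed mean of log ratios). The targeted gene was at 33.3 to 36.7 CPM in unstimulated shControl and 18.6 to 20.3 CPM in unstimulated sh*Ppargc1b* libraries, a log2 fold change of -0.83 ± 0.11 (SE, edgeR adjusted p = 3.2e-05). With IFN-β, *Ppargc1b* was at 23.6 to 31.4 and 15.5 to 20.9 CPM, a log2 fold change of -0.57 ± 0.11 (edgeR adjusted p = 9.5e-04). The knockdown was partial in both treatments. The labelled cell type was checked against DC markers (*Itgax*, *Flt3*, *Zbtb46*, *H2-Ab1*, *H2-Aa*, *Cd74* and *Dpp4*), which summed to 4325 to 6187 CPM over the 12 libraries. None of the 7 was under 1 CPM in every library. The 9 macrophage markers were also all present and summed to 2317 to 3398 CPM, and 5 lymphocyte markers were each under 1 CPM in every library.

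To compare levels between genes, CPM were divided by the kilobases of exon in the GENCODE M21 annotation. In unstimulated shControl cells *Inhba* was highest, at 68.3 ± 7.05 CPM per kb (SD, n = 3 here and for every group mean below), followed by *Tgfb1* at 66.1 ± 1.65 CPM per kb. The libraries of these 2 genes overlapped in level, from 60.2 to 72.9 and from 64.8 to 68.0 CPM per kb. *Tgfbr1* came next at 36.1 ± 1.37 CPM per kb, above *Tgfbr2* (13.3 ± 0.746) and *Acvr1b* (12.7 ± 0.783), which overlapped each other. *Fst* was sixth at 4.85 ± 0.343 CPM per kb and overlapped *Acvr2a* (4.69 ± 0.165). *Smad7* (4.07 ± 0.423), *Acvr1* (2.41 ± 0.149) and *Smad3* (0.281 ± 0.0519 CPM per kb) followed with no overlap between neighbours. At baseline the ligand transcripts and *Tgfbr1* therefore stood well above *Fst*, and *Smad3* stood lowest.

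The order changed with knockdown mainly for *Fst*. *Fst* was at 28.0 ± 6.02 CPM per kb in unstimulated and 20.6 ± 3.99 CPM per kb in IFN-β-treated sh*Ppargc1b* cells, place 4 of the 10 genes in both, with no overlap with *Tgfbr1* above or *Acvr1b* below. In IFN-β-treated shControl cells *Fst* was eighth, at 4.01 ± 0.596 CPM per kb, and overlapped *Acvr2a*. *Inhba* was first in all 4 groups and *Smad3* was last in all 4. *Tgfbr2* was above *Acvr1b* in both shControl groups, with overlapping libraries in the unstimulated one, and below it without overlap in both sh*Ppargc1b* groups.

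**Figure D1:**
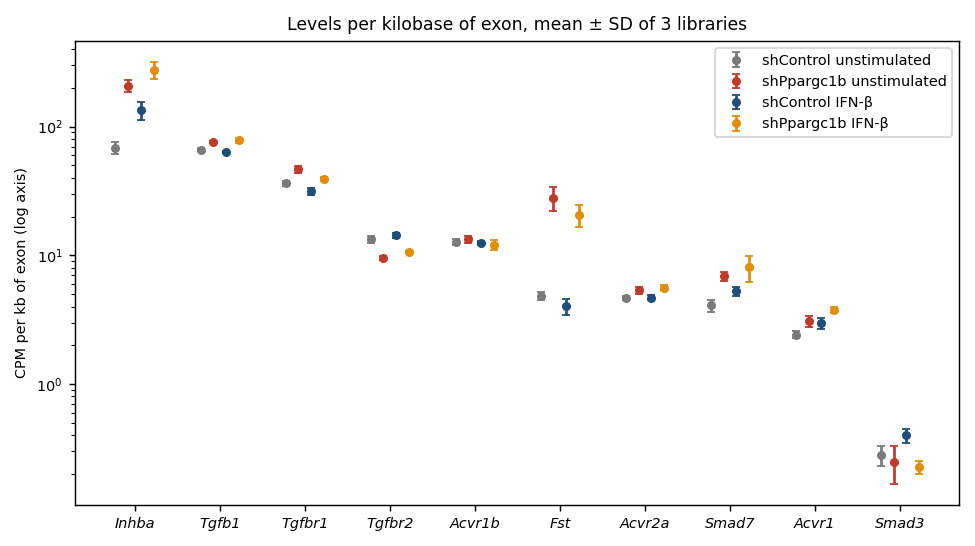
Mean CPM per kilobase of exon (log axis) of the 10 genes in the 4 groups, with SD of 3 libraries as error bars. *Fst* sits at 4.85 and 4.01 in the shControl groups and at 28.0 and 20.6 in the sh*Ppargc1b* groups, while *Inhba* is highest and *Smad3* lowest throughout.

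*Fst* (ENSMUSG00000021765) lies on chromosome 13 from 114452290 to 114458951 on the minus strand (GRCm38), and its counts cover all of its exons, untranslated regions included. Unstimulated shControl libraries held 20.6, 23.7 and 22.5 CPM and unstimulated sh*Ppargc1b* libraries 113, 160 and 112 CPM. With IFN-β, shControl libraries held 18.8, 20.9 and 15.5 CPM and sh*Ppargc1b* libraries 82.2, 116 and 86.0 CPM. Every sh*Ppargc1b* library was above every shControl library in both treatments, and replicate 2 was the highest library in each of the 4 groups. The log2 fold change was 2.53 ± 0.15 (SE) without IFN-β and 2.37 ± 0.16 with it, or 5.78-fold and 5.16-fold. Over 18 alternative settings each, 1 library left out at a time included, it ran from 2.34 to 2.62 and from 2.19 to 2.46.

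These rises chose the gene. Among 8773 genes with a mean log2 CPM of at least 3, *Fst* ranked first in both treatments, and the genes just after it were *Mmp9* (2.19, unstimulated) and *Cstdc4* (2.16, with IFN-β). Without that minimum, *Fst* ranked 24 and 28 of 18228 genes, next to the low transcripts *Afap1l2* (2.50) and *F830115B05Rik* (2.36), so "largest" holds for genes of at least moderate level. Counts behind the *Fst* values were 872 to 10966 per library. An antisense transcript, *Gm47040*, shares 115 exon bases with *Fst* and had 0 to 6 counts per library. The strand setting of the counting is not given in the sources used here, and these counts were at most a small fraction of those of *Fst*.

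*Inhba* (ENSMUSG00000041324, chromosome 13, 16011851 to 16031621, plus strand), the gene of the protein that follistatin binds, rose with knockdown in both treatments. Its unstimulated libraries were at 459, 466 and 385 CPM in shControl and 1319, 1463 and 1194 CPM in sh*Ppargc1b* cells. Its IFN-β-treated libraries were at 851, 1004 and 729 CPM in shControl and 1595, 2077 and 1617 CPM in sh*Ppargc1b* cells. The groups did not overlap in either treatment, and the 4 group means were in the order unstimulated shControl, IFN-β-treated shControl, unstimulated sh*Ppargc1b* and IFN-β-treated sh*Ppargc1b*. The log2 fold change with knockdown was 1.60 ± 0.12 (SE, edgeR adjusted p = 2.9e-07) without and 1.03 ± 0.12 (edgeR adjusted p = 1.7e-05) with IFN-β. Both calls held under all alternatives, with log2 fold changes of 1.52 to 1.68 and 0.89 to 1.14. By count, *Inhba* ranked 233 to 304 among all genes in the unstimulated shControl libraries and 49 to 64 in the unstimulated sh*Ppargc1b* libraries. Its share of all counts went from a mean of 0.0473% to 0.142%.

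**Figure D2:**
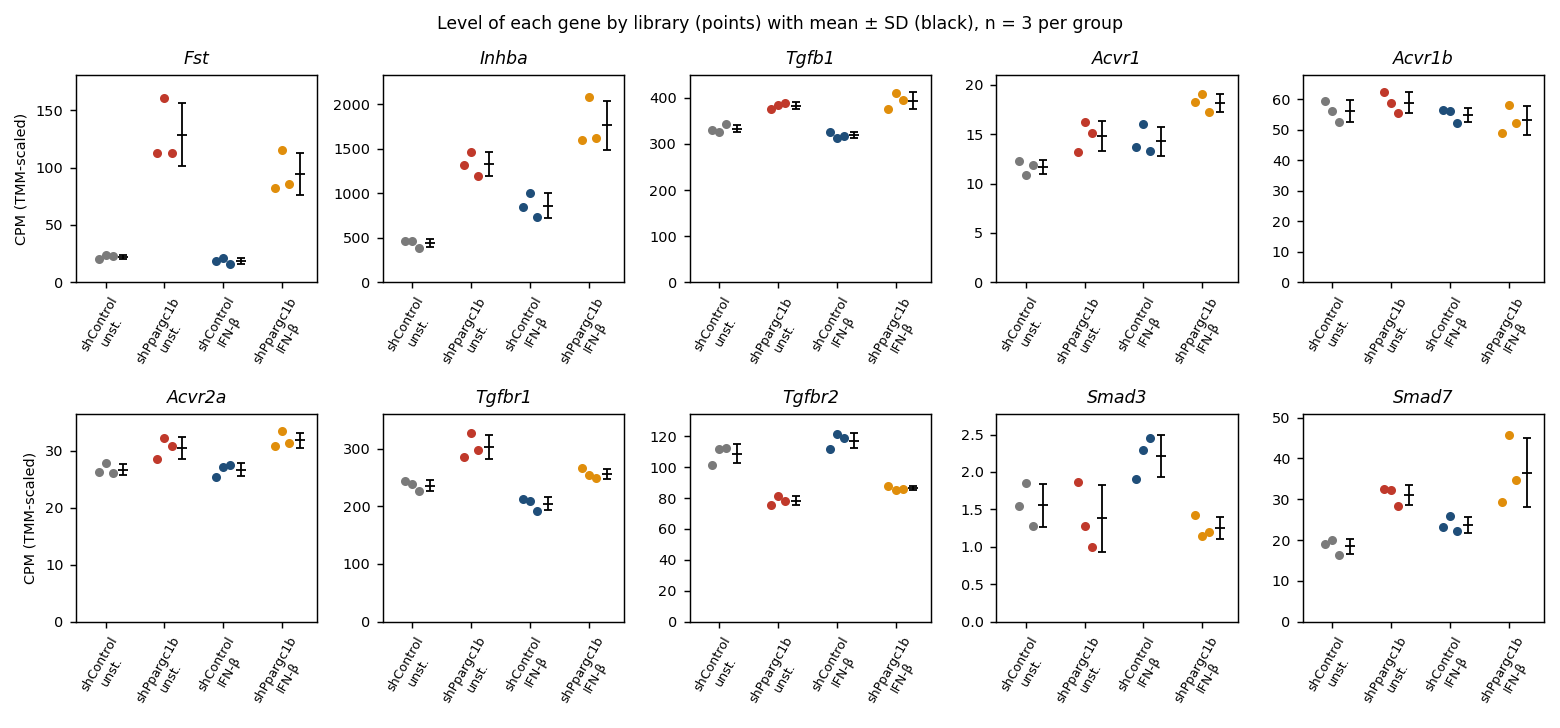
TMM-scaled CPM of each of the 10 genes by library (points) in the 4 groups, with mean and SD of 3 libraries in black and each vertical axis starting at 0. For *Fst* and *Inhba* all sh*Ppargc1b* points lie above all shControl points of the same treatment, and for *Tgfbr2* all lie below.

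The ratio of *Inhba* to *Fst*, each in CPM per kb, sets ligand transcript against inhibitor transcript within a library. It was chosen after the values were seen and has no test, since *Fst* was selected on the knockdown. Unstimulated shControl libraries had a ratio of 12.3 to 16.0 (mean 14.1 ± 1.87) and unstimulated sh*Ppargc1b* libraries 6.55 to 8.40 (7.53 ± 0.932). With IFN-β the ratio was 32.4 to 34.5 (33.6 ± 1.05) in shControl and 12.9 to 13.9 (13.4 ± 0.523) in sh*Ppargc1b* libraries. *Inhba* transcript exceeded *Fst* transcript in all 12 libraries, by the least in unstimulated sh*Ppargc1b* and by the most in IFN-β-treated shControl cells. The ratios of IFN-β-treated sh*Ppargc1b* libraries lay within the range of unstimulated shControl libraries. A ratio of transcripts does not give the amount of free activin protein.

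**Figure D3:**
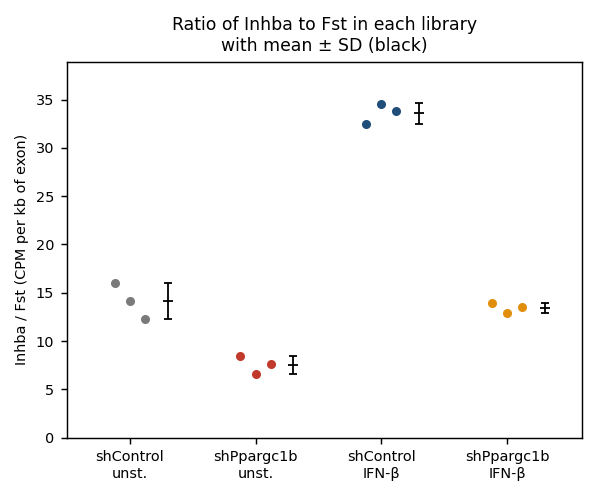
Ratio of *Inhba* to *Fst* (CPM per kb of exon) in each library (points) with mean and SD of 3 libraries in black, axis from 0. The ratio is lowest in unstimulated sh*Ppargc1b* (6.55 to 8.40) and highest in IFN-β-treated shControl libraries (32.4 to 34.5).

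To ask whether the rest of the set moved with knockdown, the 9 genes other than *Fst* were read against all genes tested. The set was chosen with earlier results of these data known, so these counts describe the chosen genes and not the pathway. In unstimulated cells 6 of the 9 were higher in sh*Ppargc1b* than in shControl (*Inhba*, *Acvr1*, *Acvr2a*, *Tgfb1*, *Tgfbr1* and *Smad7*), against 12.4% of all genes. *Tgfbr2* was lower, against 11.1% of all genes, and *Acvr1b* and *Smad3* did not pass. With IFN-β the same 6 genes were higher, against 11.5% of all genes, *Tgfbr2* and *Smad3* were lower, against 12.7%, and *Acvr1b* did not pass. The median log2 fold change of the 9 was 0.20 and 0.31, against 0.00 and -0.01 over all genes. Apart from *Inhba*, no tested member reached a log2 fold change of 1, and statements below that a call held under all alternatives leave out the alternative that asks for that size. Because RNA was measured in bulk, a change in the share of a cell type and a change in RNA per cell cannot be told apart. For each gene, 3 libraries against 3 allow no p below 0.1 in an exact two-sided permutation test, and every called member reached that smallest value.

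*Tgfb1* (ENSMUSG00000002603, chromosome 7, 25687002 to 25705077, plus strand), the TGF-β isoform most made by leukocytes, rose modestly. Unstimulated libraries were at 330, 327 and 343 CPM in shControl and 375, 385 and 388 CPM in sh*Ppargc1b* cells. With IFN-β they were at 326, 312 and 318 CPM and at 375, 411 and 395 CPM. The groups did not overlap. The rise was 0.20 ± 0.04 (log2, SE, edgeR adjusted p = 0.00178) without and 0.31 ± 0.04 (edgeR adjusted p = 5.1e-05) with IFN-β, and both calls held under all alternatives.

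The 2 TGF-β receptors moved in opposite directions. *Tgfbr1* (ENSMUSG00000007613, chromosome 4, 47353222 to 47414931, plus strand), the type I receptor, was at 244, 238 and 226 CPM in unstimulated shControl and 286, 327 and 297 CPM in unstimulated sh*Ppargc1b* libraries. With IFN-β it was at 213, 210 and 192 CPM in shControl and 266, 255 and 249 CPM in sh*Ppargc1b* libraries. It rose by 0.36 ± 0.05 (log2, SE, edgeR adjusted p = 1.4e-04) and 0.33 ± 0.05 (edgeR adjusted p = 3.6e-04). *Tgfbr2* (ENSMUSG00000032440, chromosome 9, 116084293 to 116175360, minus strand), the type II receptor whose promoter is printed above, was at 102, 112 and 112 CPM in unstimulated shControl and 75.5, 81.1 and 78.3 CPM in unstimulated sh*Ppargc1b* libraries. With IFN-β it was at 111, 121 and 119 CPM in shControl and 87.9, 85.5 and 85.7 CPM in sh*Ppargc1b* libraries. The *Tgfbr2* groups stood apart in both treatments, with log2 fold changes of -0.47 ± 0.05 (edgeR adjusted p = 3.6e-06) and -0.44 ± 0.05 (edgeR adjusted p = 8.7e-06). All 4 of these receptor calls held under all alternatives.

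Of the activin receptors in the set, *Acvr2a* rose in both treatments and *Acvr1b* passed in neither. *Acvr2a* (ENSMUSG00000052155, chromosome 2, 48814109 to 48903269, plus strand), a type II receptor, was at 26.2, 27.7 and 26.0 CPM in unstimulated shControl and 28.5, 32.2 and 30.8 CPM in unstimulated sh*Ppargc1b* libraries, a rise of 0.20 ± 0.06 (log2, SE, edgeR adjusted p = 0.0227). That call was lost without shControl unstimulated replicate 1 (adjusted p = 0.0768) or 3 (0.0801), or sh*Ppargc1b* unstimulated replicate 2 (0.115) or 3 (0.0646). With IFN-β the libraries were at 25.4, 27.1 and 27.5 CPM and at 30.9, 33.4 and 31.3 CPM, a rise of 0.26 ± 0.06 (edgeR adjusted p = 0.00434) that held under all alternatives. *Acvr2a* shares 446 exon bases with *Orc4* on the other strand, which had 3211 to 5334 counts per library against 1174 to 2229 for *Acvr2a*, so some reads could belong to either gene.

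*Acvr1* (ENSMUSG00000026836, chromosome 2, 58388644 to 58567157, minus strand) encodes ALK2, a type I receptor used mainly by bone morphogenetic proteins (BMPs). It was at 12.2, 10.8 and 11.8 CPM in unstimulated shControl and 13.2, 16.2 and 15.1 CPM in unstimulated sh*Ppargc1b* libraries. With IFN-β it was at 13.7, 16.0 and 13.3 CPM and at 18.2, 19.0 and 17.2 CPM. It rose by 0.35 ± 0.09 (log2, SE, edgeR adjusted p = 0.00876) without and 0.35 ± 0.09 (edgeR adjusted p = 0.00969) with IFN-β. The first call was lost without sh*Ppargc1b* unstimulated replicate 2 (adjusted p = 0.0503) and the second without shControl IFN-β replicate 3 (0.0623). *Acvr1b* (ENSMUSG00000000532, chromosome 15, 101174067 to 101213684, plus strand), the activin type I receptor, was at 48.8 to 62.4 CPM over all 12 libraries and its groups overlapped. Its log2 fold change was 0.07 ± 0.07 (edgeR adjusted p = 0.528) without and -0.05 ± 0.07 (edgeR adjusted p = 0.655) with IFN-β, with 95% intervals of -0.07 to 0.21 and -0.19 to 0.09.

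Of the Smads, the inhibitor rose. *Smad7* (ENSMUSG00000025880, chromosome 18, 75367529 to 75395935, plus strand) encodes an inhibitory Smad that blocks type I receptors and is itself a target of the pathway. Unstimulated libraries were at 19.1, 19.9 and 16.3 CPM in shControl and 32.4, 32.4 and 28.3 CPM in sh*Ppargc1b* cells. With IFN-β they were at 23.1, 25.9 and 22.1 CPM and at 29.2, 45.7 and 34.7 CPM. The groups did not overlap, although sh*Ppargc1b* IFN-β replicate 2 stood above the rest. The rise was 0.75 ± 0.13 (log2, SE, edgeR adjusted p = 4.8e-04) without and 0.63 ± 0.13 (edgeR adjusted p = 0.00187) with IFN-β, and both calls held under all alternatives.

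*Smad3* (ENSMUSG00000032402, chromosome 9, 63646767 to 63757994, minus strand), a receptor-activated Smad, was low, with 65 to 174 counts per library. It was at 1.54, 1.85 and 1.28 CPM in unstimulated shControl and 1.87, 1.27 and 0.994 CPM in unstimulated sh*Ppargc1b* libraries, which overlapped (log2 fold change -0.19 ± 0.22, edgeR adjusted p = 0.598). With IFN-β, shControl libraries were at 1.90, 2.29 and 2.45 CPM and sh*Ppargc1b* libraries at 1.42, 1.14 and 1.20 CPM. There the groups did not overlap and *Smad3* fell by 0.83 on the log2 scale (SE 0.22, edgeR adjusted p = 0.0119), a call that was lost without shControl IFN-β replicate 3 (adjusted p = 0.0530). A fall in one treatment and not in the other does not show that the treatments differ, and the interaction of *Smad3* was -0.64 ± 0.31 (edgeR adjusted p = 0.505).

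**Figure D4:**
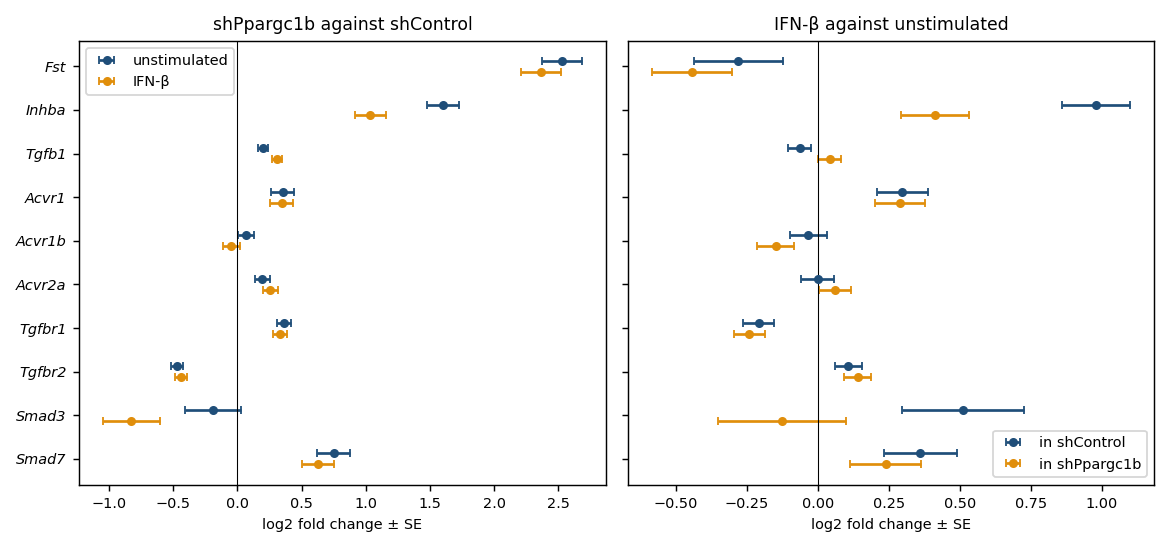
Log2 fold changes of the 10 genes with SE as error bars: the left panel gives sh*Ppargc1b* against shControl in each treatment, and the right panel the IFN-β effect for each hairpin. With knockdown *Fst* and *Inhba* lie furthest to the right and *Tgfbr2* lies below 0 in both treatments, and *Inhba* has the largest IFN-β effect (0.98 in shControl).

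To determine how IFN-β itself affected these genes, treated cells were compared with unstimulated cells of the same hairpin. In shControl cells 3 of the 10 genes rose (*Inhba*, *Acvr1* and *Smad7*), against 23.7% of all genes, and *Tgfbr1* fell, against 24.6% of all genes. In sh*Ppargc1b* cells *Inhba*, *Acvr1* and *Tgfbr2* rose, against 21.4% of all genes, and *Fst* and *Tgfbr1* fell, against 21.2%. *Fst* was chosen partly on these libraries, and of the 9 other genes 3 rose and 1 fell. Each of these comparisons uses libraries that are also in a knockdown comparison, so they are not separate evidence. The log2 values of IFN-β effects depend on scaling more than those of knockdown: with library totals in place of TMM, the median over all genes moved from -0.03 to -0.27 in shControl and from -0.02 to -0.22 in sh*Ppargc1b* cells.

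*Inhba* rose with IFN-β by 0.98 ± 0.12 in shControl cells (log2, SE, edgeR adjusted p = 5.5e-06), from a mean of 436 ± 45.0 to 861 ± 138 CPM, with no overlap. In sh*Ppargc1b* cells it rose by 0.41 ± 0.12 (edgeR adjusted p = 0.0108), from 1325 ± 135 to 1763 ± 272 CPM, also with no overlap. The call in shControl held under all alternatives. The call in sh*Ppargc1b* cells was lost with library totals (adjusted p = 0.144) and without sh*Ppargc1b* IFN-β replicate 2 (0.0554) or sh*Ppargc1b* unstimulated replicate 3 (0.0531).

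For *Fst* the IFN-β effect had the opposite sign to that of *Inhba*. Its log2 fold change was -0.28 ± 0.16 in shControl (SE, edgeR adjusted p = 0.162), where the libraries overlapped. That value passed in 4 of 18 alternatives: with libraries blocked by run of consecutive codes in their titles, which the labels do not call a batch (-0.285, adjusted p = 0.00746), with library totals (-0.52, 0.00911), with only the groups compared (-0.26, 0.0427) and with all genes of at least 1 count (-0.29, 2.1e-05). In sh*Ppargc1b* cells *Fst* fell, with a log2 fold change of -0.44 ± 0.14 (edgeR adjusted p = 0.0199), where replicate 2 of the treated group overlapped the untreated group. The fall in sh*Ppargc1b* cells was lost under DESeq2 (adjusted p = 0.0589) and when unstimulated replicate 2 (0.153), treated replicate 1 (0.0894) or treated replicate 3 (0.0828) of that hairpin was left out. These tests share libraries with the comparison that chose *Fst*. High values in unstimulated sh*Ppargc1b* libraries were part of that choice, which by itself favours a fall from them. No conclusion is drawn from the p-values of *Fst* here.

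Among the receptors, *Tgfbr1* fell by 0.21 on the log2 scale in shControl (SE 0.05, edgeR adjusted p = 0.00495), and in sh*Ppargc1b* cells it fell by 0.24 (SE 0.05, edgeR adjusted p = 0.00188), with no overlap in either. The first of these calls was lost without shControl IFN-β replicate 3 (adjusted p = 0.0538). *Acvr1* rose by 0.30 ± 0.09 in shControl (edgeR adjusted p = 0.0124) and 0.29 ± 0.09 in sh*Ppargc1b* cells (edgeR adjusted p = 0.0148). With library totals these became 0.06 (adjusted p = 0.605) and 0.09 (adjusted p = 0.434). The first was also lost without replicate 2 of unstimulated shControl (0.0753) or of IFN-β-treated shControl (0.0530), and the second without sh*Ppargc1b* unstimulated replicate 1 (0.0686). *Tgfbr2* had a log2 fold change of 0.11 ± 0.05 in shControl (edgeR adjusted p = 0.0709) and rose by 0.14 ± 0.05 in sh*Ppargc1b* cells (edgeR adjusted p = 0.0256), and with library totals both values turned negative (-0.13 and -0.06). The *Tgfbr2* value in shControl passed as a rise in 8 of 18 alternatives (0.0184 to 0.0473), the block for runs of library codes among them (adjusted p = 0.0323). With library totals it passed in the opposite direction, as a fall (adjusted p = 0.0242). The *Tgfbr2* rise in sh*Ppargc1b* cells was also lost without sh*Ppargc1b* unstimulated replicate 1 (0.0885) or 3 (0.0585), without sh*Ppargc1b* IFN-β replicate 1 (0.0665), or with all genes of at least 1 count (0.121). *Smad7* rose by 0.36 ± 0.13 in shControl cells (edgeR adjusted p = 0.0306) and had a log2 fold change of 0.24 ± 0.12 in sh*Ppargc1b* cells (edgeR adjusted p = 0.143), which passed with that block (0.0468), with all genes of at least 1 count (0.0102) and without sh*Ppargc1b* IFN-β replicate 1 (0.0139). The *Smad7* call was lost with library totals (0.425) and without replicate 1 (0.0609) or 3 (0.157) of unstimulated shControl or replicate 2 of treated shControl (0.0986). *Acvr1b*, *Acvr2a*, *Tgfb1* and *Smad3* passed in neither hairpin, with log2 fold changes of -0.15 to 0.51. Under library totals *Acvr1b* (-0.27 and -0.35, adjusted p = 0.00172 and 2.4e-04), *Acvr2a* (-0.24 and -0.14, 0.00158 and 0.0396) and *Tgfb1* (-0.30 and -0.16, 8.4e-06 and 0.00273) passed as falls in shControl and sh*Ppargc1b* cells. *Acvr1b* in sh*Ppargc1b* cells also passed with the block (0.0414), with all genes of at least 1 count (0.0263) and without sh*Ppargc1b* IFN-β replicate 2 (0.0158). *Smad3* in shControl (0.51 ± 0.21, edgeR adjusted p = 0.0610) passed in 7 of 18 alternatives (0.0273 to 0.0474), the block among them (0.0418).

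The interaction asks whether the knockdown effect differed with and without IFN-β. None of the 9 members other than *Fst* passed by edgeR after adjustment, against 0.0603% of all genes higher and 0.669% lower, and 1 had an unadjusted p under 0.05. DESeq2 also called 0 after adjustment and 1 before it. The 1 member was *Inhba*, with an interaction of -0.57 ± 0.17 (SE, edgeR adjusted p = 0.160), meaning a smaller knockdown effect with IFN-β than without. It passed in 3 of 17 alternatives: with all genes of at least 1 count (adjusted p = 9.4e-17), with libraries blocked by run of codes (0.00123) and without sh*Ppargc1b* IFN-β replicate 2 (0.0288). For *Fst* the interaction was -0.16 ± 0.21, given with no test.

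The other genes of the pathway were read from a list of 74, of which 58 were tested. Knockdown raised 12 and lowered 4 of the 58 in unstimulated cells and raised 9 and lowered 8 with IFN-β, which is 20.7% and 6.90% against 12.4% and 11.1% of all genes and then 15.5% and 13.8% against 11.5% and 12.7%. The shares with IFN-β lay near those of all genes. The median log2 fold change of the 58 was 0.06 in both, against 0.00 and -0.01 over all genes. The gene with the largest rise in unstimulated cells was *Pmepa1*, which encodes a membrane protein that is induced by TGF-β and dampens the signal. It was at 8.01, 10.9 and 8.10 CPM in shControl and 28.1, 34.5 and 27.0 CPM in sh*Ppargc1b* libraries, a rise of 1.73 ± 0.14 (log2, SE, edgeR adjusted p = 4.4e-07). With IFN-β it was at 27.3, 30.0 and 23.6 CPM and at 49.0, 64.1 and 51.4 CPM, a rise of 1.03 ± 0.13 (edgeR adjusted p = 3.2e-05). As for *Inhba*, the level of *Pmepa1* was also raised by IFN-β, by 1.58 in shControl (edgeR adjusted p = 1.3e-07) and 0.88 in sh*Ppargc1b* cells (edgeR adjusted p = 4.1e-05). Of the 12 intracellular regulators, *Smurf1*, a ubiquitin ligase that acts on Smads and receptors (0.18), and *Tgif1*, a Smad co-repressor (0.30), also rose in unstimulated cells and none fell. With IFN-β, *Skil*, which encodes the Smad repressor SnoN, fell by 0.18 and *Usp15*, a deubiquitinase, by 0.14, and *Pmepa1* was the 1 that rose. Of these regulators 25% rose in unstimulated cells, against 12.4% of all genes. With IFN-β 8.33% rose, against 11.5%, and 16.7% fell, against 12.7%.

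*Itgb8*, *Itgav* and *Lrrc32*, whose products hold or activate latent TGF-β, rose in both treatments. *Itgb8*, the β chain of an integrin that activates latent TGF-β, was at 0.508 to 0.805 CPM in unstimulated shControl and 1.37 to 1.67 CPM in unstimulated sh*Ppargc1b* libraries. It rose by 1.27 ± 0.19 (log2, SE, edgeR adjusted p = 1.5e-04) without and 1.10 ± 0.17 (edgeR adjusted p = 1.8e-04) with IFN-β. Its partner chain *Itgav* rose by 0.46 and 0.32. *Lrrc32*, which encodes GARP, the protein that displays latent TGF-β on the cell surface, was at 92.9, 81.7 and 76.9 CPM in unstimulated shControl and 168, 152 and 150 CPM in unstimulated sh*Ppargc1b* libraries. *Lrrc32* rose by 0.90 ± 0.07 (edgeR adjusted p = 4.7e-07) without and 0.75 ± 0.07 (edgeR adjusted p = 3.6e-06) with IFN-β. In the role of extracellular regulators as a whole, 3 of 12 tested genes rose and 3 fell in unstimulated cells, and 3 rose and 2 fell with IFN-β, to be read against the same shares of all genes. The falls were *Fstl1*, *Fstl3* and *Ltbp3* in unstimulated cells and *Fstl3* and *Furin* with IFN-β. The *Ltbp3* call (-0.29, edgeR adjusted p = 0.0481) was lost without any 1 of 8 libraries (0.0527 to 0.187).

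Unlike *Fst*, its relatives *Fstl1* and *Fstl3* were lower with knockdown in unstimulated cells. *Fstl3*, which encodes another secreted activin-binding protein, was at 1.03, 0.983 and 0.922 CPM in unstimulated shControl and 0.458, 0.322 and 0.511 CPM in unstimulated sh*Ppargc1b* libraries. It fell by 1.18 on the log2 scale (SE 0.38, edgeR adjusted p = 0.0326) without and by 1.35 (SE 0.39, edgeR adjusted p = 0.0188) with IFN-β, on 9 to 85 counts per library. Its adjusted p exceeded the threshold without any 1 of the 6 unstimulated libraries (0.0505 to 0.128). With IFN-β it did so without sh*Ppargc1b* replicate 1 (0.0745) or 2 (0.0605), without shControl replicate 3 (0.0718), or with the 2 groups fitted alone (0.0540). Over the alternatives the *Fstl3* log2 fold change ran from -1.336 to -1.007 without and from -2.284 to -0.961 with IFN-β. *Fstl1* fell by 0.62 in unstimulated cells (SE 0.14, edgeR adjusted p = 0.00464).

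Of the other ligands, *Inha* had 4 counts at most and was not tested, and *Inhbb* and *Tgfb3* had under 1 CPM in every library and did not pass with knockdown. *Tgfb2* was at 0.691, 0.473 and 0.324 CPM in IFN-β-treated shControl and 2.49, 1.40 and 1.44 CPM in IFN-β-treated sh*Ppargc1b* libraries, a rise of 1.87 ± 0.40 (log2, SE, edgeR adjusted p = 0.00292). That rise rests on 23 to 126 counts per library. In unstimulated cells the *Tgfb2* groups overlapped (0.48 ± 0.40, edgeR adjusted p = 0.456). Among the receptors, *Tgfbr3*, the co-receptor betaglycan, which presents TGF-β and supports the binding of inhibin, was at 31.4, 29.0 and 29.6 CPM in unstimulated shControl and 16.0, 13.1 and 14.1 CPM in unstimulated sh*Ppargc1b* libraries. *Tgfbr3* fell by 1.07 (SE 0.09, edgeR adjusted p = 5.8e-07) without and by 0.78 (SE 0.09, edgeR adjusted p = 1.6e-05) with IFN-β. *Acvr2b*, *Acvr1c* and *Acvrl1* did not pass with knockdown, and *Eng*, the co-receptor endoglin, fell by 0.35 with IFN-β (edgeR adjusted p = 1.7e-04).

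*Smad2*, the other Smad activated by activin and TGF-β receptors, and *Smad4*, the shared partner, did not pass with knockdown. *Smad2* had a log2 fold change of 0.01 ± 0.04 without and -0.05 ± 0.04 with IFN-β, with 95% intervals of -0.08 to 0.09 and -0.14 to 0.04. *Smad4* was at -0.01 ± 0.04 and 0.05 ± 0.04, with 95% intervals of -0.10 to 0.07 and -0.04 to 0.13. *Smad6*, the inhibitory Smad of the BMP branch, did not pass. In the BMP branch, 1 of 9 tested genes rose in both treatments, the receptor *Bmpr1a* (0.63 and 0.59). That is 11.1%, near the 12.4% and 11.5% of all genes. With IFN-β 1 of the 9 fell (11.1%, against 12.7% of all genes), *Bmp2*, by 1.06 (SE 0.30, edgeR adjusted p = 0.0164). The *Bmp2* call rests on 30 to 115 counts per library and was lost without shControl IFN-β replicate 2 (0.0964) or sh*Ppargc1b* IFN-β replicate 2 (0.0664).

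Of 9 tested textbook targets of TGF-β or activin reported here, 4 rose with knockdown in unstimulated cells (44.4%, against 12.4% of all genes), none fell, and *Ccn2*, *Junb*, *Itgae*, *Axl* and *Col1a1* did not pass. The 4 were *Cdkn2b* (0.89 ± 0.13, edgeR adjusted p = 1.2e-04), *Runx3* (0.44 ± 0.06, edgeR adjusted p = 5.1e-05), *Tgfbi* (0.34 ± 0.06, edgeR adjusted p = 7.3e-04) and *Cdkn1a* (0.24 ± 0.07, edgeR adjusted p = 0.0144). The *Cdkn1a* call was lost without shControl unstimulated replicate 2 or 3 or sh*Ppargc1b* unstimulated replicate 3 (adjusted p = 0.0546 to 0.0618). With IFN-β, *Tgfbi* (0.57), *Cdkn2b* (0.85) and *Runx3* (0.33) rose (33.3%, against 11.5% of all genes) and *Axl* fell by 0.24, and the other 5 did not pass. These genes have other inputs as well, and *Cdkn1a* and *Cdkn2b* also act in cell-cycle arrest. Of 5 proliferation markers, *Mki67* fell by 0.53 in unstimulated cells (edgeR adjusted p = 0.0137) and the other 4 did not pass, and the 5 summed to 256 to 339 CPM in unstimulated shControl and 165 to 266 CPM in unstimulated sh*Ppargc1b* libraries. Their part in the result was not tested.

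**Figure D5:**
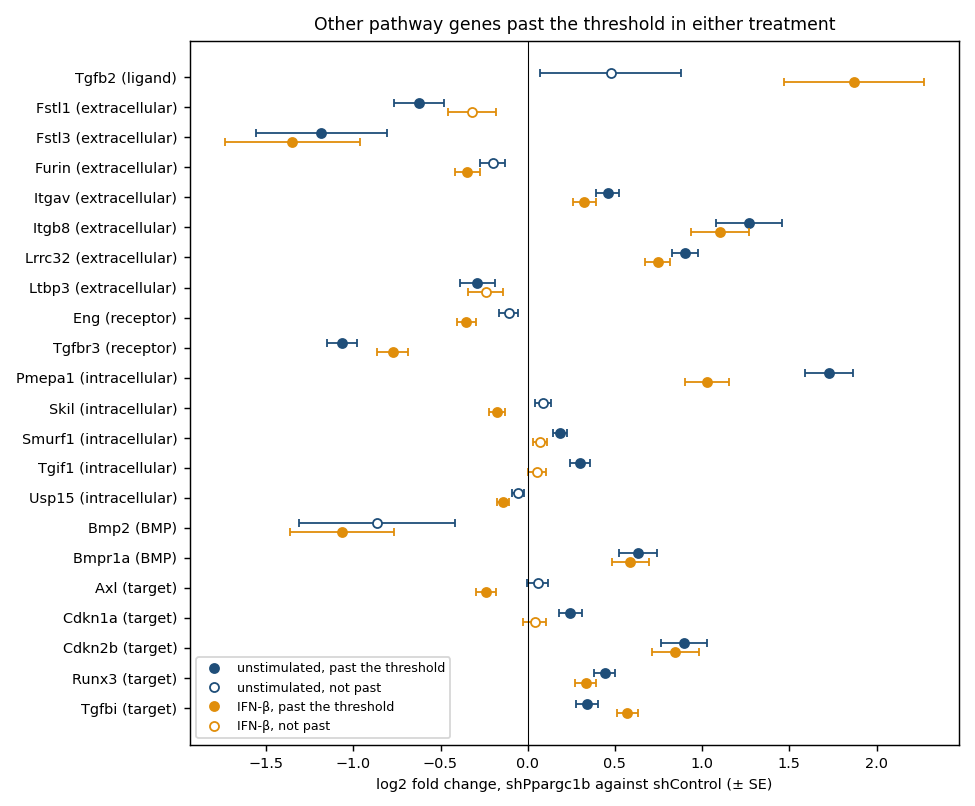
Log2 fold change with knockdown (with SE) of listed pathway genes that passed in either treatment, grouped by role. Blue is unstimulated and orange IFN-β-treated, and filled points passed an adjusted p of 0.05. *Pmepa1*, *Itgb8* and *Lrrc32* lie above 0 and *Fstl3* and *Tgfbr3* below 0 in both treatments.

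With IFN-β, 20 of the 58 listed genes rose (34.5%, against 23.7% of all genes) and 11 fell (19.0%, against 24.6%) in shControl cells. In sh*Ppargc1b* cells 19 rose (32.8%, against 21.4%) and 7 fell (12.1%, against 21.2%). The largest rises were in *Ltbp1*, a latent TGF-β binding protein (3.17 and 2.44, from 10 to 27 counts per unstimulated library), *Bmp2* (2.68 and 2.48) and *Eng* (1.77 and 1.53). *Id1*, a BMP target, fell by 0.90 and 0.71, *Thbs1*, an activator of latent TGF-β, by 0.76 and 0.68, and *Zfyve9*, a Smad anchor, by 0.54 and 0.50. No listed gene had an interaction past the threshold by edgeR (10 had an unadjusted p under 0.05), while DESeq2 called 2, *Axl* (-0.30) and *Skil* (-0.27). In edgeR alternatives *Pmepa1* passed with the block for runs of library codes (-0.71, adjusted p = 5.9e-04) and with all genes of at least 1 count (9.3e-10). It also passed without replicate 2 of unstimulated shControl (0.04275) or of IFN-β-treated sh*Ppargc1b* (0.0279). These genes are named here after their values were seen.

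The genes whose 4 group means were most like those of *Fst* were found among 8772 genes with a mean log2 CPM of at least 3, as the smallest root mean square difference of centred log2 group means. They were *Mmp9* (0.169), *Cstdc4* (0.203), *Rbp4* (0.319), *Csta2* (0.355) and *Itgb3* (0.363). *Mmp9*, a secreted gelatinase, went from a mean of 13.6 to 62.3 CPM without and from 12.3 to 51.1 CPM with IFN-β. The likeness rests on 4 group means and is a description.

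Cell type markers also moved with knockdown. The 7 DC markers summed to 4325 to 5134 CPM in unstimulated shControl and 4962 to 5738 CPM in unstimulated sh*Ppargc1b* libraries, and to 4664 to 5651 and 5409 to 6187 CPM with IFN-β. Of them, *Itgax* (0.26 and 0.20), *Flt3* (0.57 and 0.81) and *Zbtb46* (0.61 and 0.65) rose in both treatments and *Dpp4* rose with IFN-β (0.42). The 8 fibroblast or stromal markers (*Col1a1*, *Col1a2*, *Col3a1*, *Pdgfra*, *Pdgfrb*, *Dcn*, *Lum* and *Postn*) summed to 4.43 to 6.55 CPM in unstimulated shControl and 6.71 to 9.29 CPM in unstimulated sh*Ppargc1b* libraries, and to 4.26 to 8.45 and 6.48 to 13.1 CPM with IFN-β. None of them passed with knockdown and 3 were under 1 CPM in every library. The 8 mast cell or basophil markers summed to 8.71 to 16.8 and 22.1 to 25.7 CPM without and to 7.64 to 14.9 and 12.8 to 21.2 CPM with IFN-β. *Kit* and *Gata2* rose in both treatments, while *Cpa3*, *Mcpt8*, *Ms4a2* and *Fcer1a* passed in neither and *Mcpt4* and *Tpsb2* were too low to be tested. Of the 8, 4 were under 1 CPM in every library. The 7 neutrophil markers summed to 35.6 to 74.0 and 73.4 to 126 CPM without and to 31.3 to 76.1 and 66.7 to 121 CPM with IFN-β, and of these only *S100a8* passed, higher in both treatments. The 9 macrophage markers summed to 2517 to 2683 and 2317 to 2401 CPM without and to 3153 to 3398 and 2720 to 2934 CPM with IFN-β, lower with knockdown with no overlap. Of them, *Mertk* (-0.40 and -0.27) and *Mrc1* (-1.51 and -1.42) fell in both treatments, *Fcgr1*, *C1qb* and *C1qc* fell with IFN-β (by 0.27, 0.31 and 0.32), and *Cd14* rose in both (0.44 and 0.23). The 4 endothelial markers summed to 17.9 to 23.7 and 26.9 to 33.1 CPM without and to 180 to 223 and 228 to 235 CPM with IFN-β. In unstimulated cells *Cdh5* (1.06, edgeR adjusted p = 0.00121) and *Kdr* (0.47, edgeR adjusted p = 0.00368) rose with knockdown, with IFN-β neither passed, and *Tek* and *Emcn* were too low to be tested. The part of these cells in the values of *Fst*, *Inhba* and the receptors was not tested.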

How the data were processed

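The authors depleted ribosomal RNA, trimmed reads (Trim Galore 0.6.0 per the submitters' processing notes) and mapped them to mouse GRCm38 (mm10) with STAR (2.7.8a per those notes). They deposited raw counts: whole numbers of reads per gene for all 12 libraries in 1 table, with no normalization and no pooling. Whether counting used strand is not given in the sources used here, and reads from identical copies of a sequence may be undercounted. All value columns were used.

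Groups were taken from the sample titles, and replicates were numbered in record order, which pairs no samples. Counts between replicates differed by more than sampling noise (chi-square per degree of freedom 8.54 to 21.3). In R 4.3.3, edgeR 4.0.16 (genes kept by filterByExpr at 10 counts, 15 in total, TMM scaling, quasi-likelihood F-test, 1 mean per group over all 12 libraries) was run on the whole table, and p-values were adjusted by Benjamini-Hochberg over all 18228 genes, with a threshold of 0.05. The script was tested on simulated data. SE is the absolute log2 fold change divided by the square root of F. Gene positions and exon lengths come from GENCODE M21 (GRCm38). Log2 CPM used a prior count of 2.

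The genes, the pathway and marker lists and the tests were chosen with earlier results of these data known. Named are the 10 genes, their close relatives, *Ppargc1b*, up to 3 listed pathway genes with the largest rise and 3 with the largest fall per comparison, and the 5 genes most like *Fst*; other listed genes and the markers are named where they passed with knockdown, and *Ccn2*, *Junb*, *Itgae* and *Col1a1* as targets that did not. A listed pathway gene is not reported here. Alternatives were DESeq2 1.42.0, other scalings, no low-count filter, fits to the compared groups only, a block for runs of consecutive library codes, each library left out, and a minimum absolute log2 fold change of 1.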

Additional observations from a re-analysis of the deposited data

How the results depend on the processing

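Over all alternatives, log2 fold changes of the 10 genes kept direction and side of the threshold in 813 cases, passed newly in 32, lost the threshold in 28 and turned in 17. The 813 include the knockdown and interaction values of *Fst*, which have no test and were counted as kept when they moved by less than 1 SD. The *Fst* interaction ran from -0.345 to 0.05, and its change of sign is not among the 17. Log2 fold changes of the other named genes kept both in 822 cases and lost the threshold in 24. The cause of these changes was not tested. Library totals in place of TMM turned IFN-β effects of *Tgfbr2* (-0.13 in shControl, -0.062 in sh*Ppargc1b*), *Acvr2a* (-0.14) and *Tgfb1* (-0.16, both in sh*Ppargc1b*) and the interactions of *Acvr1* (0.028) and *Tgfbr1* (0.002). They also moved 22 group levels by over 1 SD. The other turns came with 1 library left out: the *Smad3* knockdown effect in unstimulated cells (-0.458 to 0.004 over the libraries left out) and its IFN-β effect in sh*Ppargc1b* cells (-0.317 to 0.147), the *Acvr1b* IFN-β effect in shControl cells (-0.094 to 0.019), and the interactions of *Acvr1* (-0.075 to 0.08), *Tgfbr1* (-0.091 to 0.044) and *Tgfbr2* (-0.014 to 0.099). None of these turned values was past the threshold in the reported fit except the *Tgfbr2* IFN-β effect in sh*Ppargc1b* cells.

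The count of members called for IFN-β in shControl went from 4 to 7 with library totals, with only the groups compared, or with the term for runs of library codes. The count of members with an interaction went from 0 to 1 with all genes of at least 1 count or that term (*Inhba* in both), and that of listed pathway genes from 0 to 2 under DESeq2, to 6 with all genes and to 3 with the term. A minimum absolute log2 fold change of 1 left 1 member other than *Fst* in either knockdown comparison, 0 members in either IFN-β comparison, and 4, 5, 6 and 8 listed genes in the knockdown (unstimulated, IFN-β) and IFN-β (shControl, sh*Ppargc1b*) comparisons. With 1 library left out at a time, members called were 5 to 7, 6 to 8, 2 to 6, 3 to 5 and 0 to 1 in the same order followed by the interaction, and listed genes 13 to 19, 17 to 20, 27 to 34, 22 to 28 and 0 to 1. These member counts leave *Fst* out for knockdown and the interaction and include it for IFN-β. The count for IFN-β in shControl fell from 4 to 2 without shControl IFN-β replicate 2, and that in sh*Ppargc1b* cells from 5 to 3 without sh*Ppargc1b* unstimulated replicate 1 or 3. *Ltbp3* lost its call in unstimulated cells without any of 8 libraries (adjusted p = 0.0527 to 0.187), and *Usp15* with IFN-β when all genes of at least 1 count were kept (0.0881).

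The labels give no replicate numbers, so samples could not be paired by them. A fit with a block for each run of consecutive library codes, which the labels do not call a batch, was made instead. For members it added calls for *Fst* (adjusted p = 0.00746), *Tgfbr2* (0.0323) and *Smad3* (0.0418) for IFN-β in shControl, *Acvr1b* (0.0414) and *Smad7* (0.0468) for IFN-β in sh*Ppargc1b* cells and *Inhba* for the interaction (0.00123), and it took none away. Libraries of the same run deviated from their group means with correlations of -0.13 to 0.37, 0.17 to 0.38 and 0.23 to 0.48 over genes in the 3 runs. Depth limits *Tgfb2*, *Fstl3*, *Bmp2*, *Ltbp1*, *Inhbb*, *Acvr1c* and *Tgfb3*, which had at most 142 counts in a library.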
